A study of Mus musculus with 8 samples.

Results

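Chemokine receptors are G protein-coupled receptors that steer T cells along gradients of chemokines, the small secreted proteins made by lymphoid stroma, myeloid cells, tumour cells and T cells themselves. CCR7 binds CCL19 and CCL21 and guides naive and central memory T cells into lymph nodes. CXCR3 binds CXCL9 and CXCL10, which interferon-γ induces, CXCR6 binds CXCL16, CXCR4 binds CXCL12, CCR2 binds CCL2 and related ligands, and CCR8 binds CCL1 and CCL8. The transcripts of these receptors, Ccr7, Cxcr3, Cxcr6, Cxcr4, Ccr2 and Ccr8, are described here in CD8+ T cells sorted from pancreatic tumours. They are 6 of the 32285 genes in the expression files, were listed by name, and all 6 were detected in each of 4 libraries.

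The cells were OT-I T cells, whose transgenic T cell receptor recognises an ovalbumin peptide. They came from Cas9 knock-in mice, carried a lentiviral library of guides against metabolic genes, and were enriched by the CD90.1 reporter of that vector. They were injected into mice with orthotopic KPC_OVA tumours, grown from 1 mouse pancreatic cancer line engineered to make ovalbumin, and sorted from the primary tumour 7 days later. Recipients had been given anti-PD-1 (3 libraries, called replicates 1, 2 and 3) or IgG control antibody (1 library). All cells of both groups therefore carry Cas9 and a guide, and the nontargeting guides are the only unedited reference. The labels give no age and do not say which mice make up a library, so p-values measure the spread between libraries, which may be technical.

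Of 56359 barcodes, 23059 with exactly 1 called guide passed the filters, from 2535 to 11495 per library, and their median depth ran from 6329 to 16829 unique molecular identifiers (UMIs). IgG was the shallowest library. T cell identity was borne out by Cd3e in at least 97.3% and Cd8a in at least 97.2% of cells of every library, with Cd4 in at most 0.155%. Any pair of libraries shared between 3 and 18 cell barcodes. Anti-PD-1 replicates 1 and 2 share the stem of their name, and their guide compositions differed with a chi-square per degree of freedom of 1.56. Replicate 3 and IgG differed with 3.05, and each other pair with 5.04 to 6.27. This statistic grows with the number of cells, so 1.56 and 3.05, from small and large libraries, are not ranked. The study's methods mention batches without saying which libraries they held, and no label names one, but Cxcr4 and Ccr8 divided the libraries in the same way, so each treatment value is given with that division in view. Levels are CPM, the UMIs of a gene summed over the cells of a library or class and scaled to their total, and they are compared between cells, not between genes.

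Ccr8, Cxcr6 and Ccr2 lie on chromosome 9, the last 2 separated by 290.2 kb in the chemokine receptor cluster, whereas Ccr7 (chromosome 11), Cxcr3 (X) and Cxcr4 (1) stand alone. Cxcr6 (9, 123806475 to 123811760, plus strand, GRCm38) lies whole within Fyco1, which is annotated on the minus strand, and the strand setting of the counting is not given in the sources at hand. None of the other 5 genes overlaps an annotated gene. RefSeq promoter windows on GRCm38.p6 were found for 5 of the 6 genes, all but Ccr7. The 250 bases before the start of Cxcr6, the receptor with the widest detection, and of Cxcr4, the receptor that differed most between libraries, are printed in lower case so that the results below can be set beside the sequence. Capitals mark the letters ACCACA (bound by RUNX factors), CTTTGA (TCF factors, among them Tcf7), TCACAC (T-box factors) and CACCC (KLF factors, among them Klf2), searched on both strands.
Cxcr6 promoter, chr9:123806227-123806476, plus strand: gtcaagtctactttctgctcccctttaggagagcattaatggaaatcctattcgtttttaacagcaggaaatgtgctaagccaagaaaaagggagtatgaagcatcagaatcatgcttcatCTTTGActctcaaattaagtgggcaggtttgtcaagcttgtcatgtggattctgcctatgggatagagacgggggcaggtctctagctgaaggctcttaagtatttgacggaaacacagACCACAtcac
Cxcr4 promoter, chr1:128592300-128592549, minus strand: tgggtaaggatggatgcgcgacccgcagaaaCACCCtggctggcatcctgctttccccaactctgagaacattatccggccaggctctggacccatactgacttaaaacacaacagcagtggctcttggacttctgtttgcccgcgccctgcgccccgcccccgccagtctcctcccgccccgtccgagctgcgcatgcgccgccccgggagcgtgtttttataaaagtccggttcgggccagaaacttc
Among 32851 promoter windows of the same length, 14.0% held the RUNX letters, 13.8% the TCF letters, 12.3% the T-box letters and 52.0% the KLF letters. The Cxcr6 window held 1 RUNX and 1 TCF match, and the Cxcr4 window held 1 KLF match. These matches describe letters only.

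Cxcr6 was the receptor found in most cells. Its level was 348 CPM in IgG and 344, 333 and 497 CPM in anti-PD-1 replicates 1, 2 and 3. After every cell had been thinned to 4000 UMIs, so that depth was equal, 65.6% of IgG cells (95% Clopper-Pearson interval 64.7 to 66.6) and 64.3%, 65.0% and 77.6% of cells in the anti-PD-1 libraries held a Cxcr6 UMI. Replicate 3 thus stood above the other 3 libraries, which lay close together.

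Cxcr3 was the most even receptor, at 46.3 CPM in IgG and 43.8, 45.6 and 47.0 CPM in the anti-PD-1 libraries, a 1.07-fold range. Its thinned share of cells was 15.3% in IgG (14.6 to 16.1) and 17.4%, 17.8% and 17.7% under anti-PD-1. Ccr2, which marks cells able to follow CCL2, was at 36.3 CPM in IgG and 33.1, 31.3 and 49.3 CPM in the anti-PD-1 libraries. Its thinned share was 11.02% in IgG (10.4 to 11.7) and 11.4%, 10.5% and 14.3% under anti-PD-1, so that replicate 3 was again the highest.

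Ccr7 was at 22.5 CPM in IgG and 28.8, 27.2 and 14.99 CPM under anti-PD-1, with replicate 3 the lowest. A Ccr7 UMI was found in 5.68% of thinned IgG cells (5.22 to 6.16) and in 6.85%, 6.53% and 3.53% of thinned anti-PD-1 cells. Ccr7 transcripts were concentrated in few cells. In the anti-PD-1 libraries, cells with at least 5 Ccr7 UMIs made up 20.8% to 24.4% of the positive cells and held 57.4% to 62.7% of the Ccr7 UMIs, and in the shallower IgG library they made up 6.91% and held 24.5%. The highest single cell held 39 Ccr7 UMIs. For each receptor in replicate 1, the share of its UMIs held by cells with at least 5 UMIs of that same receptor was taken. It was 62.7% for Ccr7, 87.5% for the widely detected Cxcr6, 39.0% for Ccr2, 21.3% for Cxcr3, 10.6% for Cxcr4 and 1.05% for Ccr8.

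Cxcr4 and Ccr8 were divided between library pairs. Cxcr4 was at 27.0 and 23.2 CPM in replicates 1 and 2, but at 5.64 CPM in anti-PD-1 replicate 3 and only 4.27 CPM in the IgG library. Its thinned share was 10.5% and 8.92% in replicates 1 and 2 against 2.19% in replicate 3 and 1.51% in IgG (1.28 to 1.78). Ccr8 was at 9.75 and 9.28 CPM in replicates 1 and 2, 5.08 CPM in anti-PD-1 replicate 3 and 4.72 CPM in the IgG library. At equal depth the difference was smaller, with a Ccr8 UMI in 2.73% and 3.67% of cells of replicates 1 and 2, 1.80% of replicate 3 and 1.99% of IgG (1.72 to 2.29), so that replicate 3 lay within the interval of IgG. For both genes the CPM of replicate 3 lay above IgG, but nearer to IgG than to replicates 1 and 2. What set the division was not tested.

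Without thinning the shares followed depth as well as level. A UMI of Ccr7 was then found in 8.19% of IgG cells and 6.22% to 14.98% of anti-PD-1 cells, of Cxcr3 in 23.5% and 37.0% to 42.0%, of Cxcr6 in 76.6% and 87.8% to 92.7%, of Cxcr4 in 2.77% and 6.23% to 31.3%, of Ccr2 in 16.5% and 24.4% to 27.7%, and of Ccr8 in 3.24% and 6.30% to 14.4%. Thinning left out 8 to 1842 shallower cells a library, most of them in IgG.

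As a background, 21 guide-free barcodes with epithelial transcripts and almost no T cell transcripts were examined, with median depths of 1352 to 11647 UMIs per library. A Cxcr6 UMI was found in 2 of them (9.52%). The other 5 receptors were found in 0 of 21, which allows a share of up to 14.3% (3 counts of 21). That limit lies near or above the thinned shares of these 5 receptors, so the few barcodes set no useful bound on free RNA for them. Intervals and limits cover counting error only.

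**Figure D1:**
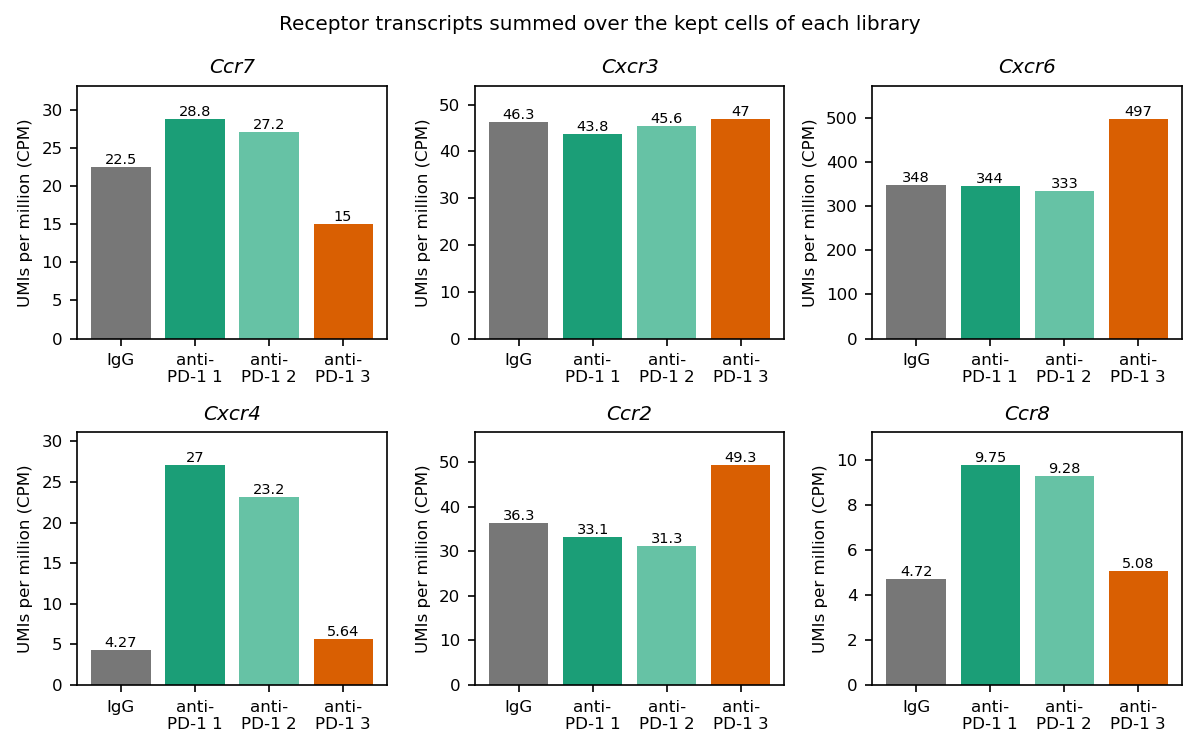
Bars show the level (CPM, linear axis from 0) of each receptor, summed over the kept cells of the IgG library and of the 3 anti-PD-1 libraries. Cxcr3 is level across libraries, Cxcr4 and Ccr8 are high in anti-PD-1 replicates 1 and 2 and low in replicate 3 and IgG, and Cxcr6 and Ccr2 are highest in replicate 3.

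The question of how receptors differ with anti-PD-1 was tested with edgeR's quasi-likelihood fit on library sums, in which the lone IgG library is assumed to vary like the others. None of the 6 receptors passed an adjusted p of 0.05, and neither did any of the 13810 genes (0%). At an unadjusted p under 0.05 there were 282 of these genes, a share below the 0.05 expected without any difference. In DESeq2, 5 genes passed, none of them a receptor. Cxcr4 had the largest difference of the 6, with a log2 ratio of anti-PD-1 over IgG of 2.13 ± 0.92 (SE, adjusted p = 0.987), followed by Ccr8 at 0.78 ± 0.41 (adjusted p = 0.987). Cxcr6 was at 0.18 ± 0.25, Ccr7 at 0.08 ± 0.38, Ccr2 at 0.07 ± 0.27 and Cxcr3 at -0.01 ± 0.13. In CPM, Cxcr4 and Ccr8 were above IgG in 3 of 3 anti-PD-1 libraries, and the other 4 receptors were not.

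The outcome of this comparison depended on replicate 3. Without it, 24.9% of 13327 genes were called, and 3 of the 6 receptors with them: Cxcr4 (log2 ratio 2.57 ± 0.12, adjusted p = 4.47e-93), Ccr8 (1.03 ± 0.13, adjusted p = 4.52e-14) and Ccr7 (0.33 ± 0.10, adjusted p = 0.00694). When a term for the 2 library pairs was added instead, so that treatment was read from replicate 3 against IgG, 2.05% of genes were called and 3 of the 6 receptors with them, but other ones. Ccr7 was then lower under anti-PD-1 (-0.59 ± 0.12, adjusted p = 0.00012), whereas Cxcr6 (0.51 ± 0.14, adjusted p = 0.0159) and Ccr2 (0.44 ± 0.12, adjusted p = 0.0111) were higher. Cxcr4 was at 0.40 ± 0.15 (adjusted p = 0.192) and Ccr8 at 0.10 ± 0.15 in that fit. In both of these fits only replicates 1 and 2 repeat each other, so the spread rests on them alone, and edgeR shares its estimate across genes. The small p-values of these fits therefore measure noise between 2 libraries that share the stem of their name, not the spread between treated mice. Ccr7 thus changed direction between the fits, and for no receptor can treatment and library pair be told apart with 1 IgG library.

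**Figure D2:**
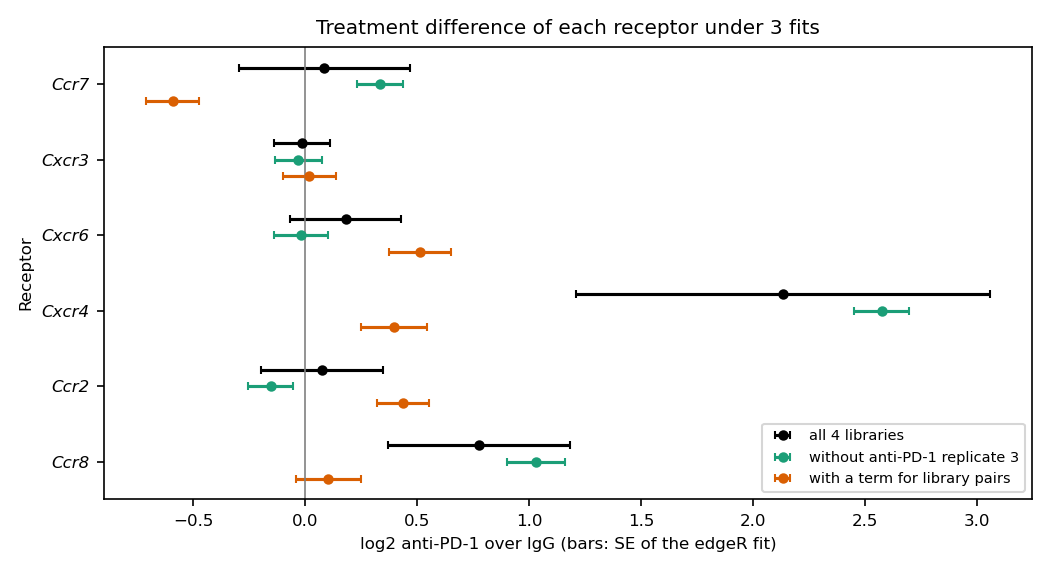
Points show the log2 ratio of anti-PD-1 over IgG for each receptor, with the standard error of the edgeR fit as bars, over all 4 libraries (black), without anti-PD-1 replicate 3 (green) and with a term for the 2 library pairs (orange). Cxcr4 falls from 2.57 without replicate 3 to 0.40 with the term, and Ccr7 moves from 0.33 to -0.59.

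Next, receptors were compared across states of the T cells. Each cell was scored with 10 lists of marker genes, none of which contains any of the 6 receptors, and was placed in the class of its highest score where this reached 1.5 SD above the mean of its library. In all, 13815 cells were placed in a class and 9244 had no list. Of all cells, 10.3% lay within 0.1 of that limit, so the classes are ranges of a score and not cell types. Each class was compared with the mean of the other classes by edgeR on 44 sums, 1 for each class and library, with library as a term. Scores and receptor levels come from the same cells, and no label marks a state. Receptors passed the test in 43 of 66 pairs of receptor and class, where 33.0% of all pairs of gene and class were called, and 27 of these 43 calls held when any one library was left out. The values for all 66 pairs are drawn in the map of class contrasts.

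The precursor class (Tcf7, Slamf6, Id3, Xcl1 and others, the profile of self-renewing cells of an exhausted response) was the class of Ccr7. Ccr7 was at 75.1 CPM there in IgG and at 73.6, 68.2 and 64.8 CPM in anti-PD-1 replicates 1, 2 and 3, a narrow range that did not follow the library pairs. The next class, cells with no list, averaged 28.7 ± 8.14 CPM (SD, n = 4) and was lower in 4 of 4 libraries. The log2 ratio of precursor cells over the other classes was 2.37 ± 0.19 (SE, edgeR adjusted p = 6.49e-14). Precursor cells were 5.97% to 6.70% of a library and held 13.6% to 28.0% of its Ccr7 UMIs, so that most Ccr7 transcripts lay outside the class. All told, 5 of 6 receptors were called in the precursor class, where 43.3% of all genes were.

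In the same class, Cxcr6 and Ccr2 were at their lowest. Cxcr6 was at 132 CPM in precursor cells of IgG and at 135, 152 and 250 CPM in those of the anti-PD-1 libraries, each below every other class of its library (log2 ratio -1.26 ± 0.07, adjusted p = 1.25e-19). Ccr2 was at 10.3, 4.98, 10.0 and 21.5 CPM in the same order (-1.79 ± 0.19, adjusted p = 7.62e-11). Cxcr3 was moderately higher (0.40 ± 0.10, adjusted p = 0.000723), and Ccr8 was higher in the fit over all libraries (0.59 ± 0.18, adjusted p = 0.00498). In replicate 3, however, it was at 4.02 CPM in precursor cells and 5.08 CPM in the whole library, and the call was lost without replicate 1 or 2 (adjusted p = 0.0507 and 0.13) and in thinned cells (0.51, adjusted p = 0.232).

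The egress and memory class (Klf2, S1pr1, Il7r and others, genes of cells that leave tissue for blood and lymph) had the highest Cxcr3 and the highest Ccr2. Cxcr3 was at 105 CPM in IgG and at 154, 159 and 137 CPM under anti-PD-1, whereas the next class, the interferon class, averaged 68.9 ± 10.3 CPM. The log2 ratio was 1.88 ± 0.08 (adjusted p = 1.33e-22). Ccr2 was at 113, 123, 118 and 182 CPM (1.93 ± 0.11, adjusted p = 2.38e-18), above the next class, NK receptor, in 4 of 4 libraries. This class held 5.39% to 6.98% of the cells, 10.7% to 18.4% of the Cxcr3 UMIs and 14.1% to 19.4% of the Ccr2 UMIs.

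Cxcr4 too had its highest mean among egress and memory cells, at 6.41 CPM in IgG but 51.2, 52.4 and 12.4 CPM under anti-PD-1 (1.09 ± 0.16, adjusted p = 4.30e-07). It was highest there in replicates 1 and 2, whereas hypoxia cells were higher in IgG (9.59 CPM) and in replicate 3 (14.5 CPM). The difference from the second class, interferon, averaged 6.27 ± 7.88 CPM (SD, n = 4). In nontargeting cells alone, the Cxcr4 ratio in this class was -0.11. Ccr8 was lowest in the class, at 2.57, 2.35, 1.30 and 0.888 CPM, from 3 to 10 UMIs a library (-1.90 ± 0.29, adjusted p = 7.16e-07). Cxcr6 was lower (-0.38 ± 0.06, adjusted p = 2.60e-06). Ccr7, although it is a receptor of recirculating cells, was at 26.2, 15.3, 32.5 and 18.0 CPM and did not pass (0.47 ± 0.28, adjusted p = 0.182), but it passed without replicate 1 (0.80, adjusted p = 0.0153) and without the filter on low counts (0.46, adjusted p = 0.000227). In total 5 of 6 receptors were called, against 39.7% of all genes.

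The exhaustion class (Pdcd1, Havcr2, Lag3, Tox and others) had the highest Cxcr6, at 589 CPM in IgG and 648, 649 and 815 CPM under anti-PD-1, above the second class, hypoxia, in 4 of 4 libraries (0.90 ± 0.06, adjusted p = 6.27e-17). Ccr7 had its lowest mean there, at 6.16, 13.3, 1.31 and 0.658 CPM (-1.97 ± 0.48, adjusted p = 0.000902), and the mean of the precursor class was 13.1 times that of the exhaustion class, or 25.6 times without replicate 1. The 21 Ccr7 UMIs of replicate 1 came from 4.27% of 117 exhaustion cells. Ccr8, known from tumour-infiltrating regulatory T cells and from activated CD8+ T cells, also had its highest mean here, at 6.16, 14.6, 12.4 and 7.89 CPM (0.74 ± 0.21, adjusted p = 0.00439), but it exceeded the precursor class by only 0.682 ± 2.53 CPM (SD, n = 4) and was not called when cells were thinned (0.30, adjusted p = 0.592). Cxcr3 was lower (-0.46 ± 0.13, adjusted p = 0.0044), and the call was lost without replicate 3 (-0.34, adjusted p = 0.128) and at a score limit of 2 (-0.39, adjusted p = 0.113). Calls were made for 4 of 6 receptors and for 37.5% of all genes.

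The other effector classes differed in their receptors. Granzyme cells (Gzmb to Gzmg, Prf1) had the lowest mean Cxcr3, at 10.5, 18.8, 14.8 and 18.2 CPM in IgG and replicates 1, 2 and 3 (-1.54 ± 0.15, adjusted p = 9.74e-11), while Ccr2 (0.61 ± 0.15, adjusted p = 0.00199) and Cxcr6 (0.27 ± 0.06, adjusted p = 0.00069) were higher. Of the receptors 5 were called, against 19.4% of all genes. The calls of Ccr7 (-1.33 ± 0.42) and Cxcr4 (-0.87 ± 0.26) held in 9 of 13 alternative settings, and those of Cxcr3, Ccr2 and Cxcr6 in 12 of 13. Cytokine cells (Ifng, Tnf, Il2 and others) had the lowest mean Cxcr4, at 2.32, 10.6, 9.20 and 3.52 CPM (-1.13 ± 0.21, adjusted p = 2.28e-05), and lower Ccr2 (-0.74 ± 0.15, adjusted p = 8.87e-05). They had higher Ccr8 (0.57 ± 0.17, adjusted p = 0.00403), a call lost without replicate 3 (adjusted p = 0.0876). Here 4 of 6 receptors and 46.7% of all genes were called.

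Ccr2 had its second highest mean in the NK receptor class (Fcer1g, Tyrobp, Klrb1c and others), at 80.2, 53.9, 59.3 and 120 CPM (1.14 ± 0.12, adjusted p = 3.08e-09), where 2 of 6 receptors and 20.3% of genes were called. The interferon class was higher in replicates 1 and 2 (79.9 and 67.1 CPM), and the difference between both classes averaged 18.1 ± 41.5 CPM (SD, n = 4). Ccr7 in this class ranged from 5.05 CPM in replicate 3 and 10.4 CPM in IgG to 35.2 and 47.8 CPM in replicates 2 and 1, a wider spread between libraries than in precursor cells. Cxcr6 was second highest in hypoxia cells (Bnip3, Pgk1, Slc2a1 and others) at 535 ± 103 CPM (SD, n = 4, 0.60 ± 0.05, adjusted p = 3.84e-12). Hypoxia cells also had higher Cxcr4 (0.69 ± 0.16, adjusted p = 0.000826) and lower Cxcr3 (-0.82 ± 0.12, adjusted p = 2.34e-07), and 3 of 6 receptors against 34.3% of genes were called.

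Cxcr3 was second highest in the interferon class (Isg15, Ifit1, Rsad2 and others), at 61.7, 60.4, 82.6 and 71.0 CPM (0.80 ± 0.12, adjusted p = 1.56e-06). Cxcr4 and Ccr2 were also called higher there, but neither without replicate 1 (adjusted p = 0.368 and 0.292) or 2 (0.169 and 0.287), and Cxcr4 not without IgG (0.0508), and 3 of 6 receptors were called against 12.6% of genes. In G1/S cells 4 of 6 receptors were called, all lower, and 53.7% of genes, with the largest change in Ccr2 (-0.83 ± 0.14, adjusted p = 2.03e-06). In G2/M cells 5 of 6 were called and 48.1% of genes, with absolute log2 ratios of at most 0.65. Of these 5 calls, that of Cxcr4 was lost whichever library was left out (adjusted p = 0.0609 to 0.167), that of Ccr7 without IgG, replicate 2 or replicate 3 (0.0541 to 0.163), that of Ccr2 without replicate 2 (0.202) and that of Cxcr3 without replicate 3 (0.0624). In G1/S cells the calls of Ccr7 (without replicate 1, 0.0669) and Cxcr3 (without replicate 2 or 3, 0.108 and 0.125) were lost. Among cells with no list 3 of 6 were called and 7.61% of genes, of which Ccr7 was the highest (0.80 ± 0.17, adjusted p = 0.00167). The call of Ccr7 held in 10 of 12 alternative settings, but that of Ccr2 in only 5 of 12 and that of Ccr8 in 6 of 11.

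**Figure D3:**
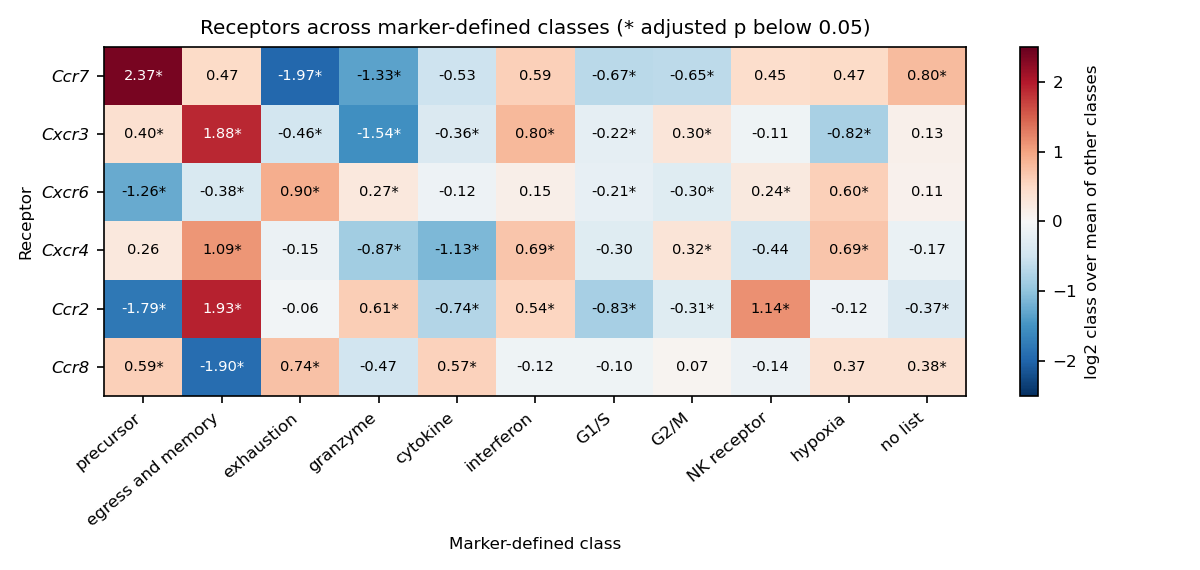
The map shows, for each receptor (rows) and marker-defined class (columns), the log2 ratio of the class over the mean of the other classes from the edgeR fit, with red for higher, blue for lower and an asterisk where the adjusted p is below 0.05. Ccr7 reaches 2.37 in the precursor class, Cxcr3 and Ccr2 reach 1.88 and 1.93 in the egress and memory class, and Cxcr6 reaches 0.90 in the exhaustion class.

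**Figure D4:**
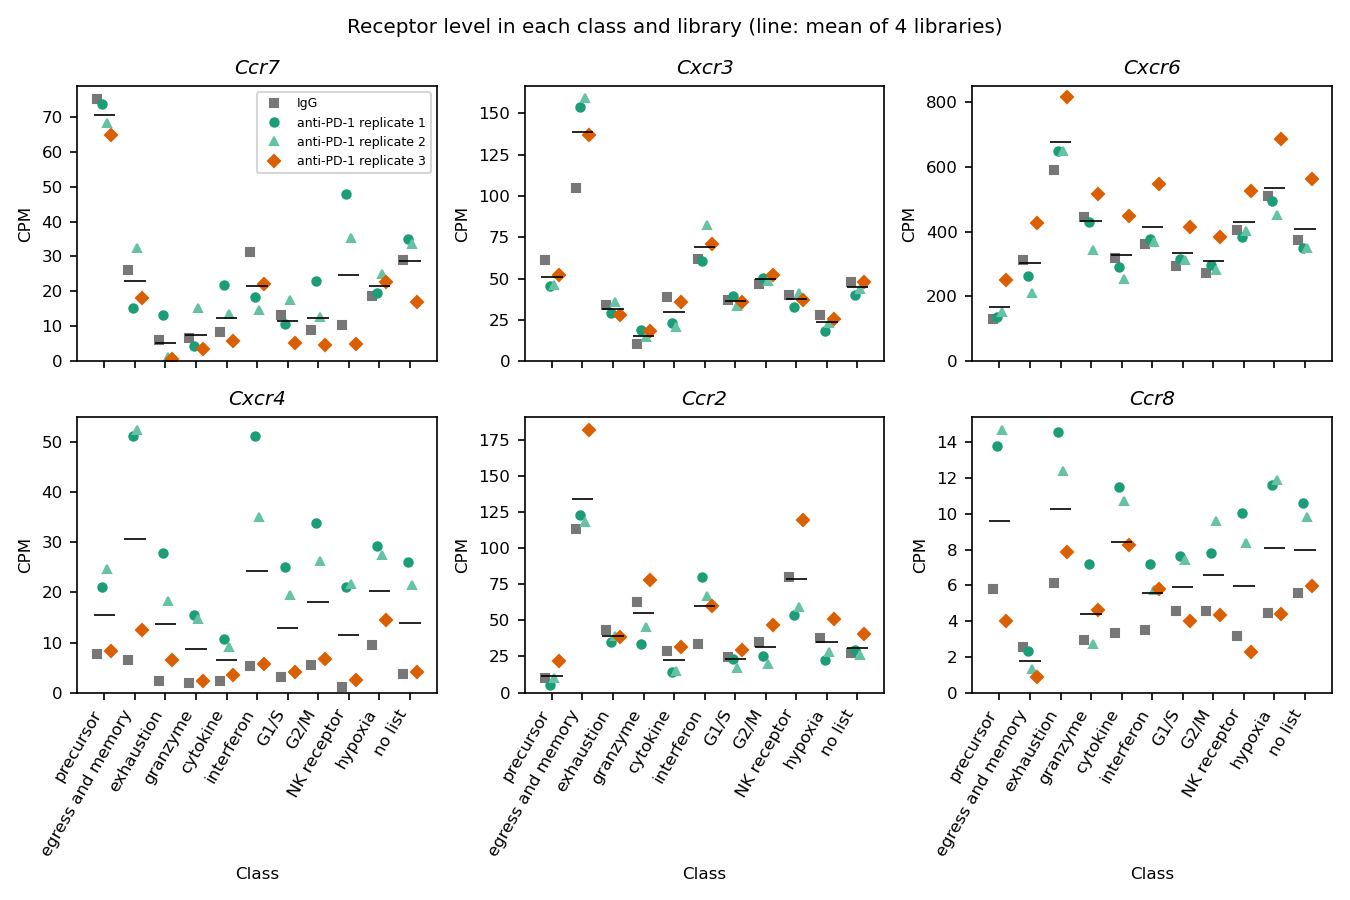
Points show the level of each receptor (CPM, linear axis from 0) in each class and library, with grey squares for IgG, green symbols for anti-PD-1 replicates 1 and 2, orange diamonds for replicate 3 and lines for the mean of 4 libraries. Ccr7 in precursor cells and Cxcr3 in egress and memory cells exceed every other class in each library, whereas Cxcr4 is divided between library pairs within nearly every class.

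Whether class differences changed with treatment was tested as an interaction. None of the 6 receptors and none of 11094 genes (0%) passed in edgeR. At an unadjusted p under 0.05 there were 325 genes, a share below 0.05, and 1 receptor. That receptor was Cxcr3 (unadjusted 0.00423 and adjusted 1, edgeR), whose egress and memory level was 105 CPM in IgG and at least 137 CPM in the 3 anti-PD-1 libraries, and whose precursor level was 61.2 CPM in IgG and 45.6 to 52.2 CPM in the others. Without replicate 3, Cxcr3 (adjusted p = 0.000734), Ccr2 (adjusted p = 0.000479) and Cxcr4 (adjusted p = 0.0289) were called in edgeR, among 357 of 10927 genes tested. Without the filter on low counts Cxcr3, Ccr2 and Ccr7 were called, among 214 of 20089 genes tested. When all classes were weighted equally in each library, the log2 ratio of anti-PD-1 over IgG was 1.89 for Cxcr4, 0.78 for Ccr8 and within ±0.13 for the others. At these equal weights Cxcr4 was at 4.46 CPM in IgG, 6.44 CPM in replicate 3 and 19.8 ± 11.8 CPM over the 3 anti-PD-1 libraries (SD, n = 3).

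Receptors were also compared within single cells. At 4000 UMIs a cell, 23.1% of IgG cells and 14.6% to 20.6% of anti-PD-1 cells held none of the 6 receptors, and the mean number of different receptors was 1.01 in IgG and 1.12 to 1.17 under anti-PD-1. For each of 15 pairs, the number of thinned cells with both receptors was divided by the number expected if the receptors were independent within a library. These ratios are a description, and all 4 libraries differ in depth before thinning.

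Ccr7 and Ccr2 had the lowest ratio of the 15 pairs, from 55 cells where 130 were expected, with a mean of 0.464 ± 0.0924 (SD, n = 4 libraries). Ccr7 and Cxcr6 were also found together less often, with a ratio of 0.649 ± 0.0406 and a range of 0.6 to 0.692. When the expected number was formed within each class, the ratios remained below 1 in 4 of 4 libraries, at 0.537 for Ccr7 with Ccr2 and 0.702 for Ccr7 with Cxcr6. These expected numbers were summed over all classes, the cells with no list included, and no class was examined alone.

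Cxcr3 and Ccr2 were found together more often than expected, in 585 cells where 421 were expected (ratio 1.53 ± 0.32, above 1 in 4 of 4 libraries, and 1.30 within classes). Ccr7 and Cxcr4 had the highest ratio, 2.75 ± 1.72, from 98 cells where 46.4 were expected. It ranged from 1.38 in replicate 1 to 5.13 in replicate 3, was above 1 in 4 of 4 libraries, and averaged 1.96 without replicate 3. At 2000 UMIs a cell the ratio was 1.65, from 19 cells, and was above 1 in 3 of 4 libraries. Cxcr6 was held by most cells, so its ratios have little room above 1. They were 1.07 ± 0.0351 with Ccr2 and 1.07 ± 0.013 with Ccr8, each above 1 in 4 of 4 libraries, and 0.957 ± 0.0367 with Cxcr3, above 1 in 1 of 4. Cxcr3 with Cxcr4 was also above 1 in 4 of 4 libraries (1.27 ± 0.181), and Cxcr6 with Cxcr4 (0.927 ± 0.0671) and Ccr2 with Ccr8 (0.671 ± 0.285, 37 cells) were below 1 in 4 of 4. Within classes, Ccr2 with Ccr8 was at 0.769 and above 1 in 2 of 4 libraries. Cxcr4 with Ccr8 rested on 14 cells, and its ratio turned from 0.648 to 1.19 without thinning.

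**Figure D5:**
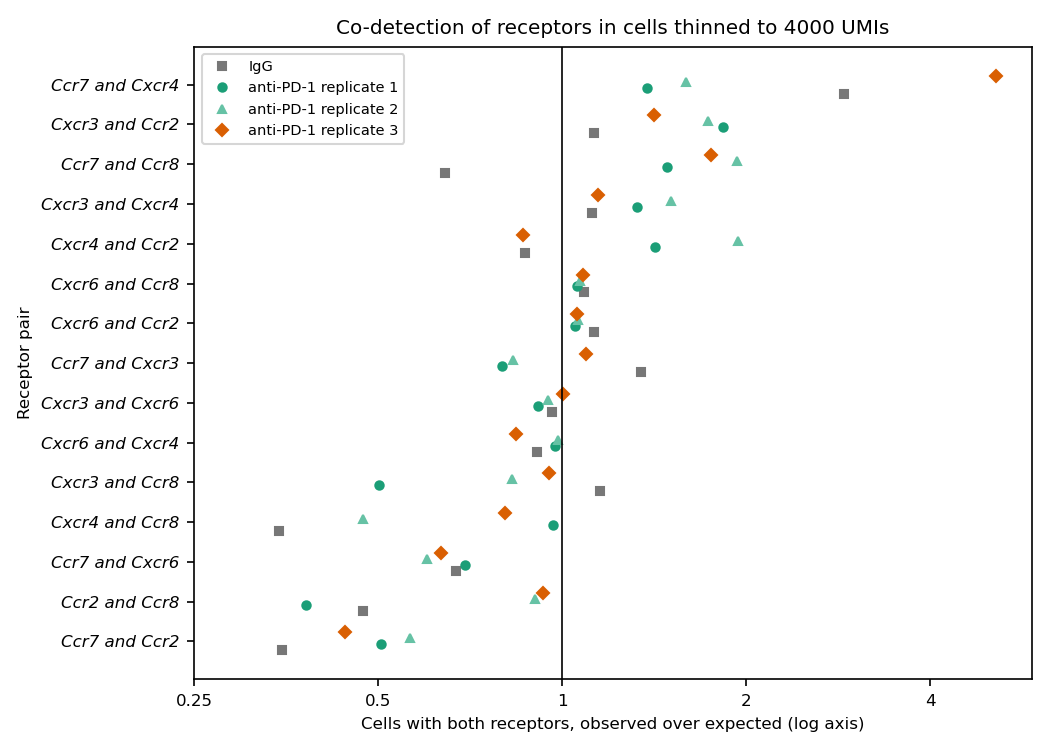
Each row is a pair of receptors, and points show, for each library (symbols as in the legend), the number of cells holding both receptors divided by the number expected under independence, on a log axis, in cells thinned to 4000 UMIs. Ccr7 with Ccr2 and Ccr7 with Cxcr6 lie below 1 in 4 of 4 libraries, and Ccr7 with Cxcr4, Cxcr3 with Ccr2, Cxcr3 with Cxcr4, Cxcr6 with Ccr2 and Cxcr6 with Ccr8 lie above 1 in 4 of 4. Cxcr6 with Cxcr4, Cxcr4 with Ccr8 and Ccr2 with Ccr8 also lie below 1 in 4 of 4.

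Across the 44 class and library sums, centred within libraries, each receptor was set against 5653 genes by Pearson correlation of log2 CPM. These sums share cells' depth and the class lists, so the correlations are descriptions. Ccr7 was most like the ribosomal protein genes Rplp1 (r = 0.80), Rpsa (0.77) and Rpl29 (0.76). Cxcr3 was most like Itgb1 (0.93), which encodes the β1 integrin chain, Skap1 (0.92) and Chd3 (0.90). Cxcr6 was most like Entpd1 (0.93), which encodes the ectoenzyme CD39 and is itself in the exhaustion list, Ostf1 (0.89) and Cmip (0.88). Ccr2 was most like Ctla2a (0.88), S100a13 (0.88) and S100a4 (0.86). Ccr8 was most like Cd200 (0.85), Phactr2 (0.85) and Rbpj (0.81), the DNA-binding partner of Notch. Cxcr4 was most like Scand1 (0.83), Rora (0.76) and Smap1 (0.67). Among the receptors themselves, Ccr2 and Ccr8 were the most opposed (r = -0.70) and Cxcr3 and Cxcr4 the most alike (r = 0.57).

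Other chemokine receptors with enough counts for the class fit included Cx3cr1, Ccr9, Ccrl2 and Cxcr5. Cx3cr1, the fractalkine receptor, was at 54.3 CPM in IgG and 49.5, 42.7 and 74.6 CPM in anti-PD-1 replicates 1, 2 and 3, and like Cxcr6 it was higher in exhaustion cells (0.97 ± 0.13, adjusted p = 5.73e-08) and lower in precursor cells (-0.47 ± 0.14, adjusted p = 0.00541). Ccr9, a receptor of gut homing, was also higher in exhaustion cells (0.72 ± 0.23, adjusted p = 0.0106) and lower in precursor cells (-0.73 ± 0.24, adjusted p = 0.013). Ccrl2 was lower in precursor cells (-0.84 ± 0.19, adjusted p = 0.000367) and in egress and memory cells (-1.04 ± 0.22, adjusted p = 0.000157). Cxcr5, the receptor of follicular cells and of some precursor CD8+ cells, was higher in precursor cells (log2 ratio 2.37 ± 0.27, adjusted p = 8.08e-10), as Ccr7 was, although it averaged 1.47 CPM over whole libraries.

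Of 24 ligands, 23 are in the files and 8 entered the class fit. Xcl1, Ccl3 and Ccl4 belong to class lists and are left out of the counts. Ccl1, the ligand of CCR8, was at 617 CPM in IgG and 280, 303 and 503 CPM under anti-PD-1, the reverse of the order of Ccr8 between library pairs. By class, Ccl1 was higher in cytokine cells (2.56 ± 0.17, adjusted p = 5.26e-17) and precursor cells (2.51 ± 0.17, adjusted p = 3.34e-16) and lower in egress and memory cells (-1.60 ± 0.26, adjusted p = 2.44e-06), 3 classes in which Ccr8 was called in the same direction. In exhaustion cells Ccl1 was lower (-0.68 ± 0.24, adjusted p = 0.0253) while Ccr8 was higher. Ccl5, at 2664 CPM in IgG and 3542 to 5226 CPM under anti-PD-1, was higher in exhaustion cells (1.12 ± 0.06, adjusted p = 6.34e-18) and lower in precursor cells (-1.23 ± 0.08, adjusted p = 9.76e-17), as Cxcr6 was. The transcripts of the CCR7 ligands Ccl19 and Ccl21a and of the CXCR4 ligand Cxcl12 had no UMI in 23059 kept cells, which allows up to 0.013% of cells to hold a UMI and sets no limit on cells expressing the gene below detection. Of the 5 ligands counted, 3 were called in each of the precursor, egress and memory, exhaustion and cytokine classes, in which 43.3%, 39.7%, 37.5% and 46.7% of all genes were. Of these 5, 2 were higher and 1 lower in precursor cells (median 0.48, all genes 0.00), 2 and 1 in egress and memory cells (-0.05, all genes -0.00), 1 and 2 in exhaustion cells (0.04, all genes 0.03), and 2 and 1 in cytokine cells (-0.21, all genes -0.04).

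Of 20 genes for signalling and egress, 18 were counted, since 2 belong to the egress and memory list. In egress and memory cells 9 of 18 were higher and 4 lower, where 1959 and 2098 of 10229 genes were (median 0.13, all genes -0.00). Among them were Gpr183, an oxysterol receptor that positions lymphocytes (1.60 ± 0.13, adjusted p = 3.40e-14), Rac2, a GTPase of cell motility (0.43 ± 0.03, adjusted p = 5.94e-15), and Gnai2, the main inhibitory G protein downstream of chemokine receptors (0.33 ± 0.04, adjusted p = 6.46e-10). Rgs1 (-0.66 ± 0.08, adjusted p = 1.42e-08) and Rgs16 (-1.15 ± 0.13, adjusted p = 1.18e-09), which shorten G protein signals, were lower there and were higher in exhaustion cells (0.40 ± 0.08, adjusted p = 5.01e-05, and 0.46 ± 0.11, adjusted p = 0.000966). In exhaustion cells 13 of 18 were higher and 1 lower, against 1947 and 1890 of all genes (median 0.27, all genes 0.03). In precursor cells 2 were higher and 11 lower, against 2256 and 2178 of all genes (-0.30, all genes 0.00). None of the listed receptors, ligands and partners passed the test between treatments in the fit without a term for library pairs. With that term, Ccl5 (0.97, adjusted p = 1.10e-06), S1pr1 (0.59, adjusted p = 0.00174), Ccl3 (0.60, adjusted p = 0.00785) and Cx3cr1 (0.45, adjusted p = 0.011) were among those called higher under anti-PD-1. Cxcl10 (-0.88, adjusted p = 0.0173) and Cxcl13 (-1.86, adjusted p = 0.0413) were called lower with the term, whereas without it their ratios were 0.87 and 0.68.

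Finally, 83 knockouts were each compared with nontargeting cells on sums per target and library, with library as a term. Of 498 pairs of receptor and target, 1 passed an edgeR adjusted p of 0.05 within its target, where 0.0668% of all gene and target pairs did, and 28 had an unadjusted p under 0.05. That pair was Cxcr4 in cells with guides against Kmt2b, which encodes a histone H3K4 methyltransferase (log2 ratio 0.90 ± 0.23, adjusted p = 0.0289). When p-values were adjusted over all targets together, it did not pass (adjusted p = 0.141), nor did any other receptor. The call was lost without anti-PD-1 replicate 1 (0.51, adjusted p = 1), without replicate 2 (0.99, adjusted p = 0.404) and without IgG (0.85, adjusted p = 0.19). The next pairs were Cxcr3 in cells with guides against Pik3cd, which encodes the PI3K δ catalytic subunit (0.53 ± 0.17, adjusted p = 0.0807), and Ccr7 in cells with guides against Setd1b, which encodes another H3K4 methyltransferase (1.41 ± 0.43, adjusted p = 0.178), neither of which passed. Without the filter on low counts both were called (adjusted p = 0.0118 and 4.68e-08).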

How the data were processed

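Single cells of 4 libraries were profiled with 10x 3′ v3.1 chemistry and guide capture. The authors deposited UMI counts per gene and cell, made with Cell Ranger 3.1.0 on mm10 per the submitters' processing notes, which also list R 3.6.3 and Seurat. Cells with exactly 1 called guide, log10 UMIs no more than 3 median absolute deviations from their library's median and at most 10% mitochondrial UMIs were kept, and no doublet caller was run. The members and lists were chosen with earlier results of these data known.

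Counts were summed per library, per class (at least 20 cells a sum) or per target (at least 10 cells a sum) and fitted with edgeR 4.0.16 (filterByExpr, TMM, quasi-likelihood, R 4.3.3), with Benjamini-Hochberg adjustment over all genes of a fit and, for knockouts, within each target. DESeq2 1.42.0 was an alternative. Class scores were means of log1p UMIs per 10000, scaled within libraries. The fits were run on simulated counts with a fixed spread and no library pairs. That was a check of the code and does not cover the division between libraries. Intervals are exact Clopper-Pearson at 95%.

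Named were the 6 receptors, from each further list the 4 genes with the highest mean CPM and up to 3 with the largest called change, the 3 genes most like each receptor (prior count 2, mean log2 CPM above 4) and the knockout pairs with the 3 smallest adjusted p or any that passed. Some listed genes and the results that need them are not reported here. Alternatives covered normalization, filters, libraries, score limit, depth, class rule, cells of other types and guides.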

Additional observations from a re-analysis of the deposited data

How the results depend on the processing

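For treatment, the count of called genes was 0 under RLE factors, no filter, without cells of other types and in nontargeting cells, 5 under DESeq2, 283 with the term for library pairs, and 0 to 3316 with 1 anti-PD-1 library left out, the highest without replicate 3. The log2 ratio of Ccr7 (0.08) ranged from -0.067 to 0.33 with 1 anti-PD-1 library left out, and was -0.044 without replicate 2, -0.59 with the term for library pairs and -0.28 in nontargeting cells. That of Cxcr3 (-0.01) ranged from -0.031 to 0.023 with 1 library left out, and was 0.018 with the term and 0.10 in nontargeting cells. With 1 library left out, Cxcr6 ranged from -0.019 to 0.27 and Ccr2 from -0.15 to 0.18, both lowest without replicate 3. For class by treatment, 214 genes were called without the filter, 1 at a score limit of 2, and 0 to 357 with 1 library left out. Of pairs of receptor and class, 32 to 52 of 66 were called over the alternatives with all 6 receptors and 11 classes (43 as reported), and 12 of 55 in nontargeting cells, which are fewer. There the Cxcr4 ratio in the egress and memory class was -0.11. The causes were not tested.

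Of 154 alternative values for the 12 highest and lowest class contrasts, 147 kept direction and call. Of 105 for coexpression, 95 moved by less than 1 SD. Shares of cells moved with depth in 11 of 12 values, as fewer or more UMIs per cell were read. No paired analysis was possible by replicate number because the IgG group has 1 library, and the term for library pairs rests on likeness in guide composition, not on numbers. Knockout alternatives were run for the 3 named pairs, and the count of calls over all targets was not run under them. With 1 IgG library, the precision of every treatment value is limited by the spread of the anti-PD-1 libraries, and the shallower IgG cells limit shares of rarely detected receptors.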
